A study of Mus musculus with 12 samples.

Results

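Genes of DNA replication and mitosis were followed in RNA of c-Kit(+) heart cells of mice before and after myocardial infarction (MI). The 37 genes were taken by symbol from a list of textbook cell cycle genes, and 36 of them are among the 15223 genes of the deposited tables. They fall into 12 replication genes, all listed, 23 mitosis genes, of which 22 are listed, and the G1/S cyclin genes Ccne1 and Ccne2. Ccnb1 is not among the listed genes, so it has no value here and enters the promoter counts alone. Values came from 11 of the 12 libraries of the series; 1 library of cardiomyocytes from sham mice was not used.

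All mice were C57BL/6 c-KitCreERT2/mTeG animals of 8 weeks that received 0.5 mg of tamoxifen per day for 14 days, so that Cre driven from the c-Kit locus marked c-Kit(+) cells with eGFP. The groups were cells taken 1 day before MI (pre-MI, n = 3), 1 day after MI (day 1, n = 2), 12 days after MI with Sfrp2 given 2 days after MI (day 12 Sfrp2, n = 3), and 12 days after MI with vehicle given 2 days after MI (day 12 vehicle, n = 3). Sfrp2 is a secreted protein that binds Wnt ligands. Day 1 samples are labelled vehicle, yet treatment is stated for the day after, and table columns read day 14 where the labels read day 12, which was followed. The marking is shared by every group, and a c-Kit-driven Cre marks any cell that uses the locus during tamoxifen, whatever its type. Whether replicates are separate mice is not stated, and p-values here reflect variation among libraries that could be technical. In bulk RNA, fewer cells of a type and less RNA per cell cannot be told apart.

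A cell copies its DNA once per cycle. CDC6 helps load the MCM2 to MCM7 helicase onto origins, CDC45 joins the helicase when it fires, and PCNA is the sliding clamp of the polymerases. The subunits of ribonucleotide reductase (RRM1 and RRM2) and thymidylate synthase (TYMS) supply nucleotides, and cyclins E1 and E2 drive entry into S phase with CDK2. Mitosis genes come on later, under FOXM1 and the MYB-MuvB complex. Most cells of the adult heart rest outside the cycle, whereas immune, stromal and vascular cells are known to divide after an infarct.

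Promoters of the mitosis genes Mki67 and Top2a and of the replication genes Mcm6, Tyms and Rrm1, which had the highest mean levels of their classes, are shown because replication and mitosis genes are classically set apart by E2F sites and by the cell cycle homology region (CHR), the docking site of the DREAM and MYB-MuvB complexes. The sequences come from RefSeq on GRCm38.p6, run 5′ to 3′ on the gene's strand, and cover 250 bases before the start and 50 after it. Capitals mark matches on either strand, and overlapping or adjoining matches run together. For E2F the letters were TTGGCGC or TTCCCGC. The E2F search also took TTGCCGC and, as the last form, TTCGCGC. For CHR they were TTTGAA. The other CHR form was TTTAAA. The CCAAT box was searched as CCAAT. The Mki67 promoter lies at chr7:135716330-135716629 on the minus strand and Top2a at chr11:99024140-99024439 on the minus strand. The Mcm6 promoter lies at chr1:128359656-128359955 on the minus strand, Tyms at chr5:30073576-30073875 on the minus strand and Rrm1 at chr7:102441445-102441744 on the plus strand.
Mki67: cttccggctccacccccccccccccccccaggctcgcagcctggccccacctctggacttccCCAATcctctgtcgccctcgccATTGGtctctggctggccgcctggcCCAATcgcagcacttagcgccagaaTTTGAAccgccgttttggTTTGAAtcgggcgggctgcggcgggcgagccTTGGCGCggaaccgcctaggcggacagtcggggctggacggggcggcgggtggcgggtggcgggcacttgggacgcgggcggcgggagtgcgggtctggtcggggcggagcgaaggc
Top2a: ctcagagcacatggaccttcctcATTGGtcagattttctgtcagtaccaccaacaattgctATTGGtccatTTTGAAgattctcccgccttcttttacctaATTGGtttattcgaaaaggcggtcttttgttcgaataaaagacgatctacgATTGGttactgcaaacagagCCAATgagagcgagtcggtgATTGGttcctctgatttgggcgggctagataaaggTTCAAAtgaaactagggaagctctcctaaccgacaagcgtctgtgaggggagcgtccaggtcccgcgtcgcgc
Mcm6: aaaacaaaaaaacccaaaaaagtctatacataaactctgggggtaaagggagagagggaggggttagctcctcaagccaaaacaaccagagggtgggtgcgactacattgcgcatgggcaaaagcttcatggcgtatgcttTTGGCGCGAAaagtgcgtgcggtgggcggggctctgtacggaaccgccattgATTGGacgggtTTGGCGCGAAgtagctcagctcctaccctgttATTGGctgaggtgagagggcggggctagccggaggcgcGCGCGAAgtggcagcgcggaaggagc
Tyms: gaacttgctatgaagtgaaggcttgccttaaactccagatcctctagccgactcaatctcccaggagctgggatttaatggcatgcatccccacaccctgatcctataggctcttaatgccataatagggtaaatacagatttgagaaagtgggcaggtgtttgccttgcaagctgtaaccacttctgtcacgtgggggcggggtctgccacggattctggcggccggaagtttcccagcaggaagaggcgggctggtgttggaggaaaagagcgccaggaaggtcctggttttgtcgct
Rrm1: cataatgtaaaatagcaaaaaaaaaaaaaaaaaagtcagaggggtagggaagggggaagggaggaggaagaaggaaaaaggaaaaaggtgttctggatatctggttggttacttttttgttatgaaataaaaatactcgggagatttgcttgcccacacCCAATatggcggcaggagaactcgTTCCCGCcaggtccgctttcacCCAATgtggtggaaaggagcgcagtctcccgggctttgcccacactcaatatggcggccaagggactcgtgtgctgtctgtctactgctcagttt

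Of 30 genes among the 37 with a promoter in that table, 11 are replication genes and 18 mitosis genes. Counts are of genes, and a gene with several promoters counts if any of them matches. E2F letters stood in 7 of 11 replication genes (63.6%) and 3 of 18 mitosis genes (16.7%). The share was 10.9% of all 27025 genes with promoters of the same length. CHR letters stood in 16 of 18 mitosis genes (88.9%) and 4 of 11 replication genes (36.4%), against 30.6% of all. CCAAT was found in 88.9% of mitosis and 81.8% of replication genes, against 41.1% of all. Among the printed promoters, CHR letters stand in Mki67 and Top2a, E2F letters in Mki67, Mcm6 and Rrm1, and CCAAT in all but Tyms, which holds none of the letters. These matches describe the letters in the window and carry no information on binding.

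The 11 libraries held 200641 to 3570993 reads on listed genes, of which 97858 to 618599 lay outside mitochondrial genes. Cell cycle genes were read thinly in all of them. Together the 36 genes had 33 to 72 reads in a pre-MI library, 171 and 175 in the day 1 libraries, 507 to 775 in day 12 Sfrp2 libraries and 143 to 333 in day 12 vehicle libraries. The highest read count of a single gene was 62, Mki67 in day 12 Sfrp2 replicate 1. In the pre-MI libraries 10, 20 and 22 of the 36 genes had no read, against 33.9%, 42.1% and 38.7% of all genes. Of the mitosis genes, 5 had none in any of the 3 pre-MI libraries, among them Kif11, Birc5 and Tpx2. Aurka had none in either day 1 library. A library in which 0 reads are seen allows up to 3 reads, which is 2.84 to 5.38 normalized counts in pre-MI libraries. No molecular identifiers mark these reads, so such limits cover counting error only.

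The summed level of the 36 genes, in the authors' normalized counts, was 55.7 to 68.1 in pre-MI libraries, 141 and 196 at day 1, 317 to 410 in day 12 Sfrp2 libraries and 192 to 267 in day 12 vehicle libraries. The mitosis genes alone summed to 28.7 to 36.0 in pre-MI libraries, 85.5 and 95.3 at day 1, 213 to 283 with Sfrp2 and 141 to 172 with vehicle. The replication genes summed to 26.1 to 29.3 in pre-MI libraries, 49.2 and 89.5 at day 1, 92.3 to 121 with Sfrp2 and 49.9 to 76.3 with vehicle. Thus all libraries taken after MI lay above all pre-MI libraries in both classes, and every Sfrp2 library lay above every vehicle library in both. Those sums are levels and have no test.

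Reads also fell on genes that heart cells should not use, and such background differed between libraries, so each class was set against it. The background was read from 99 sensory receptor genes (olfactory, vomeronasal and taste), of which 96 have an exon length and span 496.0 kb of exon. Genes are listed only if some library gave them at least 10 reads. No sensory receptor gene reached 10 reads in a pre-MI library and 82 did in a library after MI, so the contrast between pre-MI and later ratios rests on genes selected through later libraries. They held 5 to 10 reads in pre-MI libraries, 142 and 299 at day 1, 260 to 743 in Sfrp2 libraries and 70 to 605 in vehicle libraries. The replication genes had 19.5 to 37.6 times the reads that this rate gives over their exon length in pre-MI libraries. After MI they had 3.65 and 2.22 times it at day 1, 5.62, 2.65 and 2.58 times with Sfrp2, and 2.36, 9.95 and 0.477 times with vehicle. The mitosis genes gave 10.5 to 21.9 times before MI, 3.01 and 1.12 at day 1, 6.24, 2.94 and 2.83 with Sfrp2, and 2.53, 13.4 and 0.601 with vehicle. For the replication genes the pre-MI ratios were above all later ones. For the mitosis genes vehicle replicate 2, at 13.4, lay above pre-MI replicates 2 and 3, at 12.9 and 10.5. Vehicle replicate 2 and Sfrp2 replicate 1 stood highest among the libraries after MI, and vehicle replicate 3 lay under background.

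**Figure D1:**
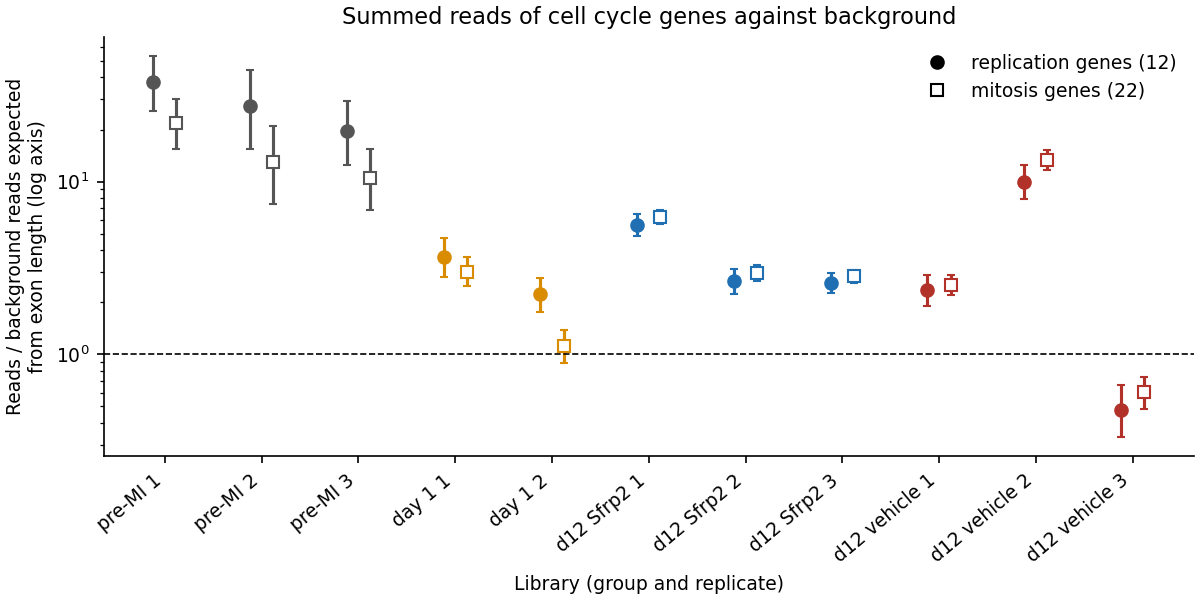
Reads of replication genes (12, filled circles) and mitosis genes (22, open squares) divided by the reads expected from exon length at the rate of sensory receptor genes, per library, on a log axis; bars are exact 95% Poisson intervals of the read count. The pre-MI libraries sit at 10.5 to 37.6, and vehicle replicate 3 sits under the dashed line at 1 in both classes.

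Gene by gene, a level per exon kb above 95% of the sensory receptor genes was reached by 23 of the 36 in Sfrp2 replicate 1 and by 23 in vehicle replicate 2. Over all genes the same level was passed by 37.5% and 56.5%. The day 1 libraries had 8 and 0 such genes, against 43.1% and 9.7% of all genes. Sfrp2 replicates 2 and 3 had 5 and 7, against 21.7% and 22.2%, and vehicle replicates 1 and 3 had 3 and 0, against 23.9% and 2.1%. Ccna2, the cyclin of S phase and G2, was the only one above it in all 3 Sfrp2 libraries. In every pre-MI library 8 genes and 48.9% of all genes exceeded it (Ccna2, Kif20a, Top2a, Mcm2, Mcm4, Mcm6, Pcna and Rrm1), where that level was 0 or 0.0471 normalized counts per kb. None of the 31 genes called higher with Sfrp2 below exceeded it in all 3 Sfrp2 libraries. In the Sfrp2 libraries, reads across the 36 genes followed exon length, with Spearman's rho of 0.59, 0.73 and 0.80. In pre-MI libraries rho was 0.37, 0.17 and -0.02. It was 0.46 and 0.37 at day 1 and 0.51, 0.23 and 0.14 with vehicle. Those genes share a library and its depth, and rho is given as a description.

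**Figure D2:**
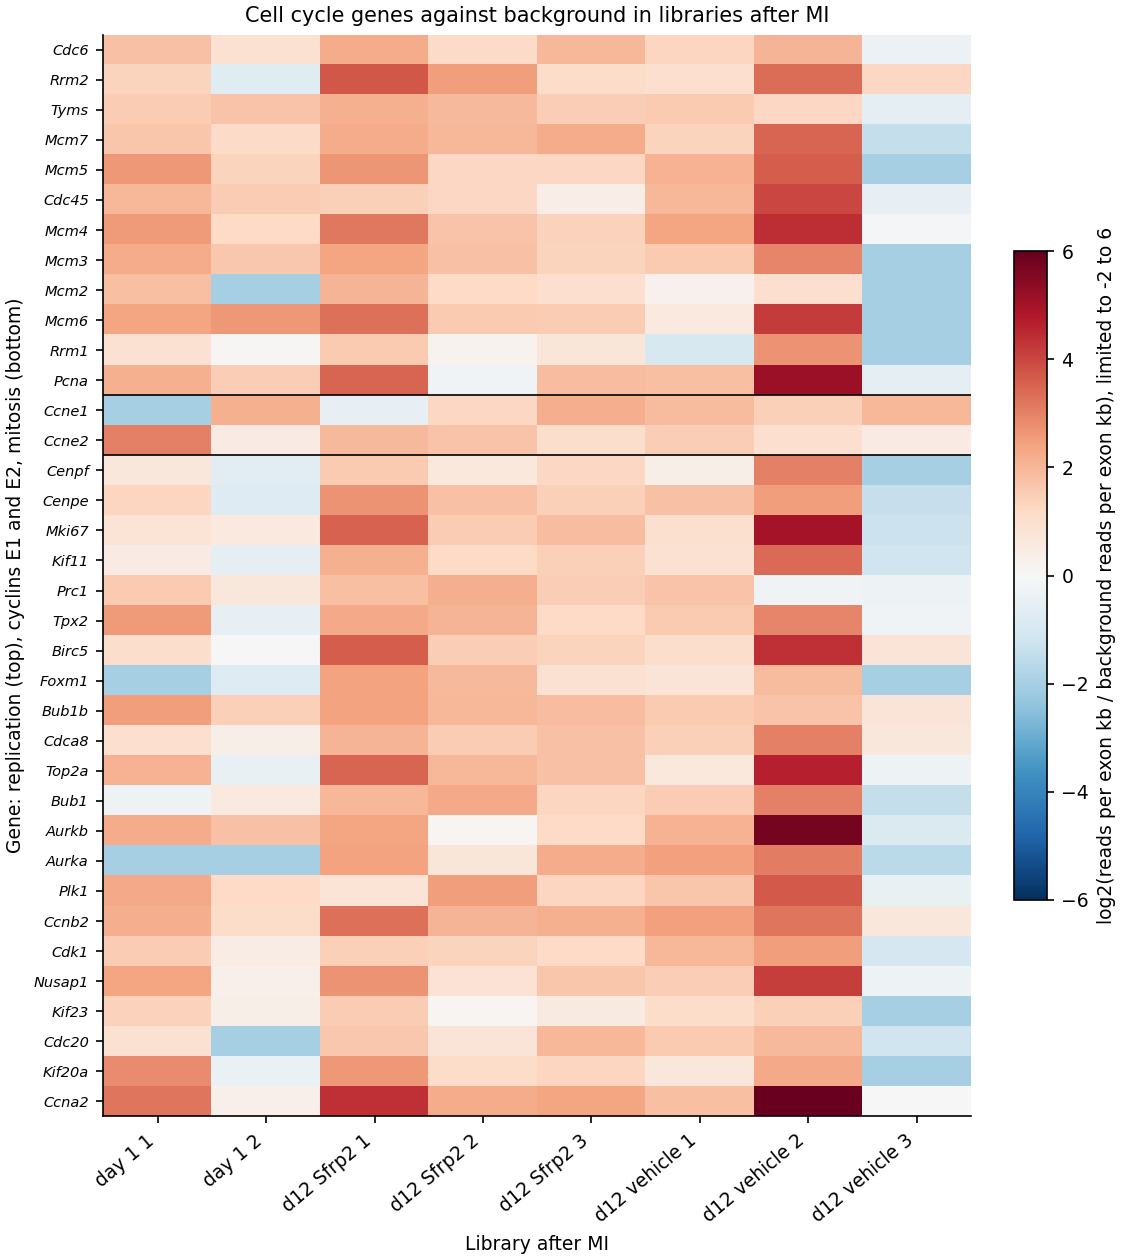
Log2 ratio of each gene's reads per exon kb to the background rate in the 8 libraries after MI, with replication genes at the top, cyclins E1 and E2 between the lines and mitosis genes at the bottom, each block ordered by its difference between day 12 Sfrp2 and pre-MI; colours are limited as the bar states. Red marks values above background; vehicle replicate 2 and Sfrp2 replicate 1 are the darkest, and vehicle replicate 3 is mostly pale or blue.

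Among mitosis genes, Mki67, which codes for the Ki-67 protein that coats mitotic chromosomes, had the highest mean level over the 11 libraries (13.6 normalized counts; chr7:135689784-135716361, minus strand). Its values were 0.946, 3.59 and 0 in pre-MI libraries, 4.03 and 10.3 at day 1, 43.7, 16.9 and 22.1 with Sfrp2, and 10.9, 27.4 and 9.35 with vehicle. Every library after MI was above every pre-MI library, and Sfrp2 replicate 1 and vehicle replicate 2 were the highest of their groups. The nearest were 4.03 in day 1 replicate 1 (5 reads) and 3.59 in pre-MI replicate 2 (2 reads). Top2a (chr11:98992943-99024189, minus strand), topoisomerase II alpha, which untangles sister chromatids, read 1.89, 3.59 and 4.54 before MI, 8.87 and 4.59 at day 1, 38.0, 21.3 and 18.4 with Sfrp2, and 7.79, 19.5 and 16.8 with vehicle. Its pre-MI values all lay below those after MI, and the Sfrp2 and vehicle libraries overlapped. The nearest, 4.54 in pre-MI replicate 3 and 4.59 in day 1 replicate 2, were 4 reads each. Only the scaling of the libraries sets them apart.

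Ccna2 (chr3:36564865-36572150, minus strand) did not follow that order. It read 11.4, 12.6 and 11.4 before MI, 8.87 and 3.44 at day 1, 31.0, 11.3 and 13.1 with Sfrp2, and 7.79, 21.3 and 9.35 with vehicle. Both day 1 libraries lay below all pre-MI libraries, and the day 12 groups overlapped with them. Exons of Ccna2 share 510 bases (12.5% of its exon length) with Exosc9 on the opposite strand, which read 4.73, 3.59 and 1.14 in pre-MI libraries; whether counting used strand is not given in the sources used here. Cenpf (chr1:189640606-189688086, minus strand), a kinetochore protein with the longest exons of the mitosis genes (15.43 kb), read 1.89, 0 and 0 before MI, 5.65 and 6.89 at day 1, 16.9, 14.4 and 22.1 with Sfrp2, and 10.9, 10.96 and 7.48 with vehicle. Its 4 groups did not overlap in the order pre-MI, day 1, vehicle, Sfrp2. That order takes no account of background. Cenpf stood at 1.58 and 0.645 times the background rate at day 1. It stood at 2.97, 1.57 and 2.34 times it with Sfrp2, and 1.27, 8.26 and 0.212 times it with vehicle.

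Among replication genes, Mcm6 (chr1:128331590-128359664, minus strand), a helicase subunit, had the highest mean level (7.67). It read 1.89, 7.17 and 5.68 before MI, 5.65 and 19.5 at day 1, 16.9, 8.16 and 8.18 with Sfrp2, and 3.89, 7.31 and 0 with vehicle. The Sfrp2 libraries were all above the pre-MI and the vehicle libraries, which overlapped with each other. Tyms (chr5:30058202-30073617, minus strand) read 2.84, 1.79 and 0 before MI, 4.03 and 13.8 at day 1, 9.86, 13.8 and 10.2 with Sfrp2, and 10.1, 1.22 and 9.35 with vehicle. All day 1 and Sfrp2 values lay above the pre-MI values, and vehicle replicate 2 did not.

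Rrm1 (chr7:102441695-102469771, plus strand) has the longest exons of the replication genes (11.01 kb) and was level before MI at 4.73, 5.38 and 4.54. It read 4.84 and 8.03 at day 1, 12.0, 7.53 and 11.04 with Sfrp2, and 3.12, 6.09 and 3.74 with vehicle, and the Sfrp2 libraries lay above all vehicle and pre-MI libraries but overlapped with day 1. Mcm4 (chr16:15623897-15637400, minus strand) read 0.946, 1.79 and 2.27 before MI, 4.84 and 5.74 at day 1, 12.0, 6.90 and 5.72 with Sfrp2, and 10.1, 6.70 and 7.48 with vehicle. It was higher in all libraries after MI than in any before, and the day 12 groups overlapped. The cyclin E genes had at most 18 reads in a library. Before MI they and most genes given above were near the floor of detection. In pre-MI libraries Cenpf had 2, 0 and 0 reads, Mki67 1, 2 and 0, and Top2a 2, 2 and 4. Among replication genes Mcm6 had 2, 4 and 5, Tyms 3, 1 and 0, Rrm1 5, 3 and 4, and Mcm4 1, 1 and 2. Ccna2 had 12, 7 and 10. Ccne1 had 1, 6 and 18 reads with Sfrp2 and 7, 1 and 13 with vehicle, against 1, 0 and 0 reads before MI. In normalized counts it averaged 3.94 with Sfrp2 and 10.1 with vehicle. Ccne2 had 7, 11 and 11 reads with Sfrp2 and 7, 1 and 6 with vehicle, against 2, 1 and 0 reads before MI.

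**Figure D3:**
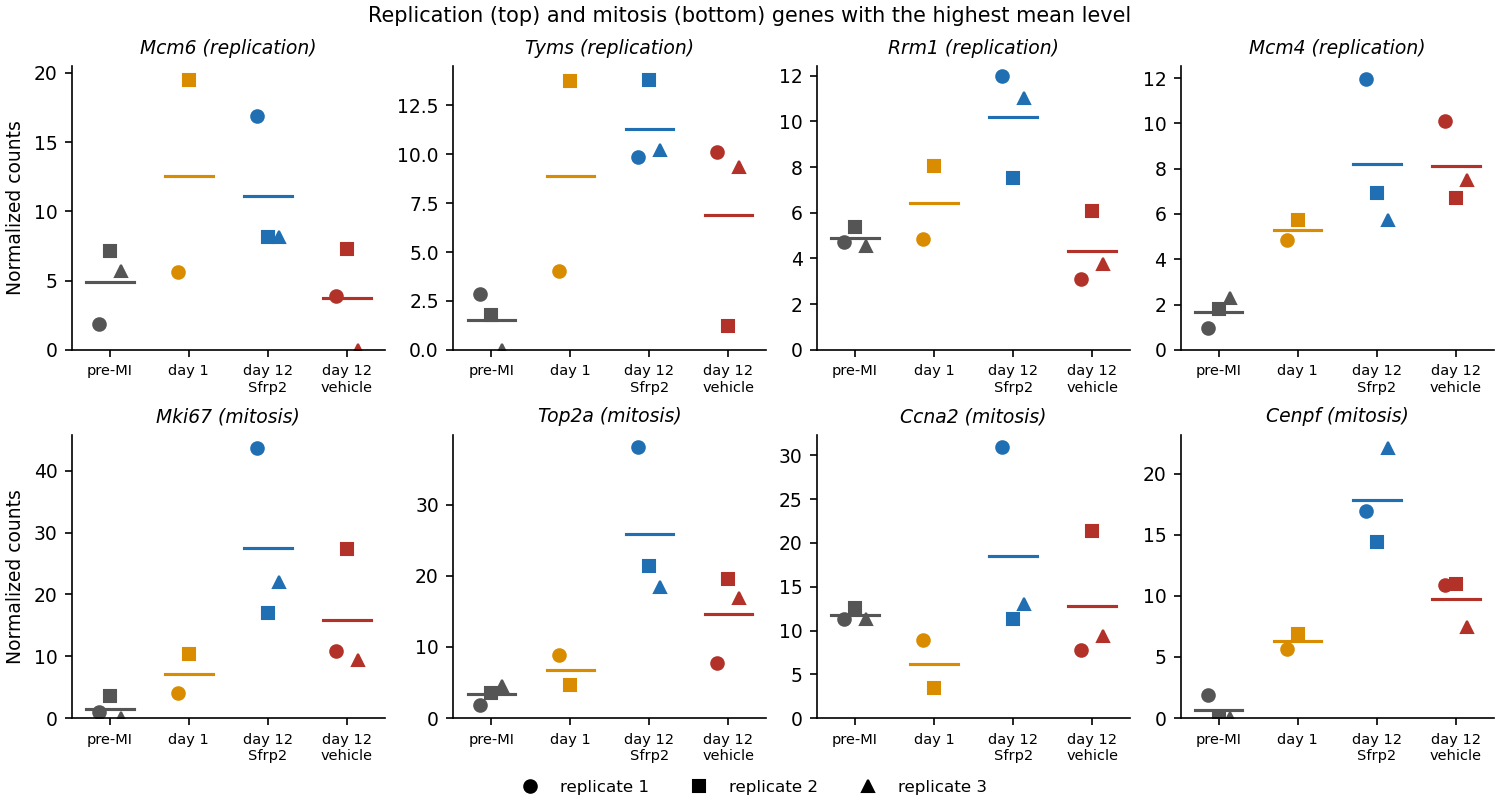
Normalized counts of the 4 replication genes (top) and 4 mitosis genes (bottom) with the highest mean over 11 libraries; symbols are libraries, shaped by replicate number, and lines are group means. For Mki67 and Top2a all libraries after MI lie above the pre-MI libraries, for Top2a by 4.59 against 4.54 on 4 reads each. Ccna2 lies at 11.4 to 12.6 before MI and at 3.44 and 8.87 at day 1.

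Between day 12 Sfrp2 and pre-MI, 31 of the 36 genes were higher and none lower (limma on log2(value + 1), Benjamini-Hochberg adjusted p under 0.05 over all 15223 genes). By the same rule 48.8% of all genes passed upward and 8.82% downward. Genes are listed only with at least 10 reads in some library. Of the 36, only Ccna2 had that many before MI, in pre-MI replicates 1 and 3 (12 and 10 reads). The others are listed through libraries after MI, so in each comparison with pre-MI their direction is partly selected. The median log2 difference was 2.16 for the 36 genes and 1.27 for all genes. It was 1.83 for the 36 with the 5 genes unread before MI set to their lower bounds for counting error. By class, 20 of 22 mitosis genes (median 2.54), 9 of 12 replication genes (median 1.82) and both cyclin E genes were higher. Whether the classes differ was not tested. The 5 that missed the threshold were Mcm3 (adjusted p = 0.0624), Mcm6 (0.091), Kif20a (0.12), Ccna2 (0.336) and Pcna (0.654), all by limma. Pcna averaged 5.48 ± 4.30 with Sfrp2 against 5.92 ± 1.86 before MI (SD, n = 3 each), a log2 difference of -0.33 (SE 0.59).

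Among genes with reads before MI, the fitted differences were highest for Cenpf, Cenpe, Mki67 and Prc1. They rest on few reads before MI. Cenpf and Cenpe each had 2, 0 and 0 reads, Mki67 had 1, 2 and 0, and Prc1 had 3, 0 and 0. Foxm1 and Cdc6 each had 2, 0 and 0, and Rrm2 had 1, 0 and 0. Cenpf averaged 17.8 ± 3.90 with Sfrp2 against 0.631 ± 1.09 before MI (SD, n = 3 each). Its log2 difference was 3.70 with an SE of 0.50 (limma adjusted p = 0.000515). Cenpe, the kinesin of the kinetochore, differed by 3.68 (SE 0.50), Mki67 by 3.67 (SE 0.61), and Prc1, which bundles microtubules of the spindle midzone, by 3.34 (SE 0.60). Kif11, the motor that separates spindle poles, averaged 11.4 ± 1.21 with Sfrp2 and had no read before MI, which makes it at least 2.12-fold higher, taking 3 reads in the pre-MI library where a read weighs most. Birc5 (survivin, of the chromosomal passenger complex) was at least 1.64-fold and the spindle assembly factor Tpx2 at least 1.63-fold higher on the same footing. These bounds cover counting error alone, and background was not taken off. In the Sfrp2 libraries Kif11 stood at 4.35, 2.26 and 2.68 times the background rate. Birc5 stood at 12.3, 2.79 and 2.55 times it and Tpx2 at 4.89, 4.05 and 2.28 times it. Aurkb and Plk1, kinases of mitosis, averaged under the floor of 3 reads in Sfrp2 libraries, and no fold is given. Foxm1, the transcription factor of the mitotic genes, averaged 10.3 ± 3.42 with Sfrp2 and 0.631 ± 1.09 before MI, a log2 difference of 2.94 (SE 0.53). In the replication class Cdc6 (2.86), Rrm2 (2.83), Tyms (2.47) and Mcm7 (2.34) led and Rrm1 (0.91, SE 0.33, limma adjusted p = 0.0458) was the smallest past the threshold.

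Other scalings change this picture. Centring each library on the median of all genes moved the all-gene median to -0.20, against 1.27 uncentred (to -0.24 for vehicle and -0.37 for day 1). Centred in this way, 9 of the 36 were higher and 1 (Pcna, -1.80) was lower, against 17.7% higher and 29.6% lower over all genes. The 9 were all mitosis genes (Foxm1, Kif11, Birc5, Cenpf, Tpx2, Mki67, Prc1, Bub1b and Cenpe). Centring takes the same amount from every gene's difference, so genes below that amount turn by construction: these were Ccna2 (-0.996), Kif20a (-0.60), Rrm1 (-0.56), Mcm6 (-0.39) and Cdc20 (-0.09), an activator of the anaphase-promoting complex. With the background rate times exon length subtracted, 18 were higher, 14 mitosis and 4 replication genes, and none lower, against 28.2% of all genes higher and 11.1% lower, and Rrm1 turned to -0.33. The authors' deposited table called 19 of the 36 higher and none lower, against 28.9% and 4.56% of all genes. Scaling to reads outside mitochondrial genes left 25 higher, against 41.6% of all genes higher and 12.6% lower. On recovered reads edgeR called 27 higher (42.0% of all genes higher, 13.7% lower) and DESeq2 20 (35.7% higher, 7.01% lower). A fit to all 11 libraries called 25 (38.7% higher, 4.92% lower) and a weight per library 31 (57.0% higher, 12.3% lower). No overlap between the groups was seen for 32 of the 36, higher with Sfrp2, against 51.4% of all genes (11.5% were lower without overlap).

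Between day 12 vehicle and pre-MI, no gene of the 36 passed the same limma test, nor did any of the 15223 (0.0%), and 19 of the 36 and 5150 of all genes had an unadjusted p under 0.05. Their median log2 difference was 1.77, or 1.47 with bounds for the unread genes, against 1.00 for all genes. Kif11 averaged 7.32 ± 0.562, Aurkb 8.05 ± 4.91 and Birc5 7.69 ± 4.80 with vehicle (SD, n = 3), and none had a read before MI. These means are 1.36, 1.5 and 1.43 times the value of 3 reads, which allows for counting error alone. Background was not taken off, and in vehicle replicate 3 these genes stood at 0.44, 0.557 and 1.69 times its rate. No lower bound beyond counting error is therefore given. Each gene had a limma adjusted p of 0.07. The groups did not overlap for 18 of the 36, higher with vehicle, against 26.3% of all genes (7.08% were lower without overlap). Other tests gave other counts. edgeR's quasi-likelihood test on the recovered reads called 6 higher (12.3% of all genes higher, 0.236% lower) and DESeq2 called 0 (4.89% higher, 0.762% lower). The authors' deposited table called 14 higher, against 23.1% of all genes higher and 2.65% lower. A fit to all 11 libraries called 17 (23.6% higher, 4.3% lower) and a weight per library 24 (45.5% higher, 8.86% lower). Without vehicle replicate 2, limma called 18 higher, against 35.7% of all genes higher and 6.5% lower. Replicate 2 had the highest myeloid marker level of the series, 1115 normalized counts over 7 genes, against 123 and 142 in vehicle replicates 1 and 3. It was also the highest of its group in the sums of erythroid (12510), endothelial (1153), fibroblast (748) and cardiomyocyte (393) markers, and the middle one in T cell markers (54.2).

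Between day 1 and pre-MI, 6 of the 36 were higher and none lower, against 21.3% of all genes higher and 2.65% lower. Those were Kif11, Plk1, Birc5, Aurkb, Tpx2 and the replication gene Cdc45, of which the first 5 were unread before MI and averaged 1.95 to 5.06 at day 1, under the floor of 3 reads, so no fold is given. Cdc45 averaged 5.06 ± 2.59 at day 1 (n = 2) against 0.379 ± 0.656 before MI (n = 3), and differed by 2.16 on the log2 scale with an SE of 0.55 (limma adjusted p = 0.0489). The median log2 difference was 1.40 for the 36, 1.16 with bounds, and 0.70 for all genes. With background subtracted, Aurkb and Plk1 were higher and none lower, against 4.45% of all genes higher and 1.2% lower. Centred on the median of all genes, none was higher and Aurka (-1.40) and Ccna2 (-2.02) were lower, against 3.65% higher and 14.5% lower over all genes. The authors' deposited table called none of the 36 (1.76% of all genes higher, 0.289% lower), and DESeq2 on recovered reads called none (3.86% higher, 1.88% lower). edgeR called 3 (13.0% higher, 4.35% lower), a fit to all 11 libraries 2 (5.46% higher, 0.42% lower), a weight per library 5 (17.6% higher, 1.02% lower) and scaling to reads outside mitochondrial genes 5 (19.0% higher, 5.26% lower). The groups did not overlap for 24 genes that were higher and for Ccna2, which was lower, against 39.6% and 10.4% of all genes.

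**Figure D4:**
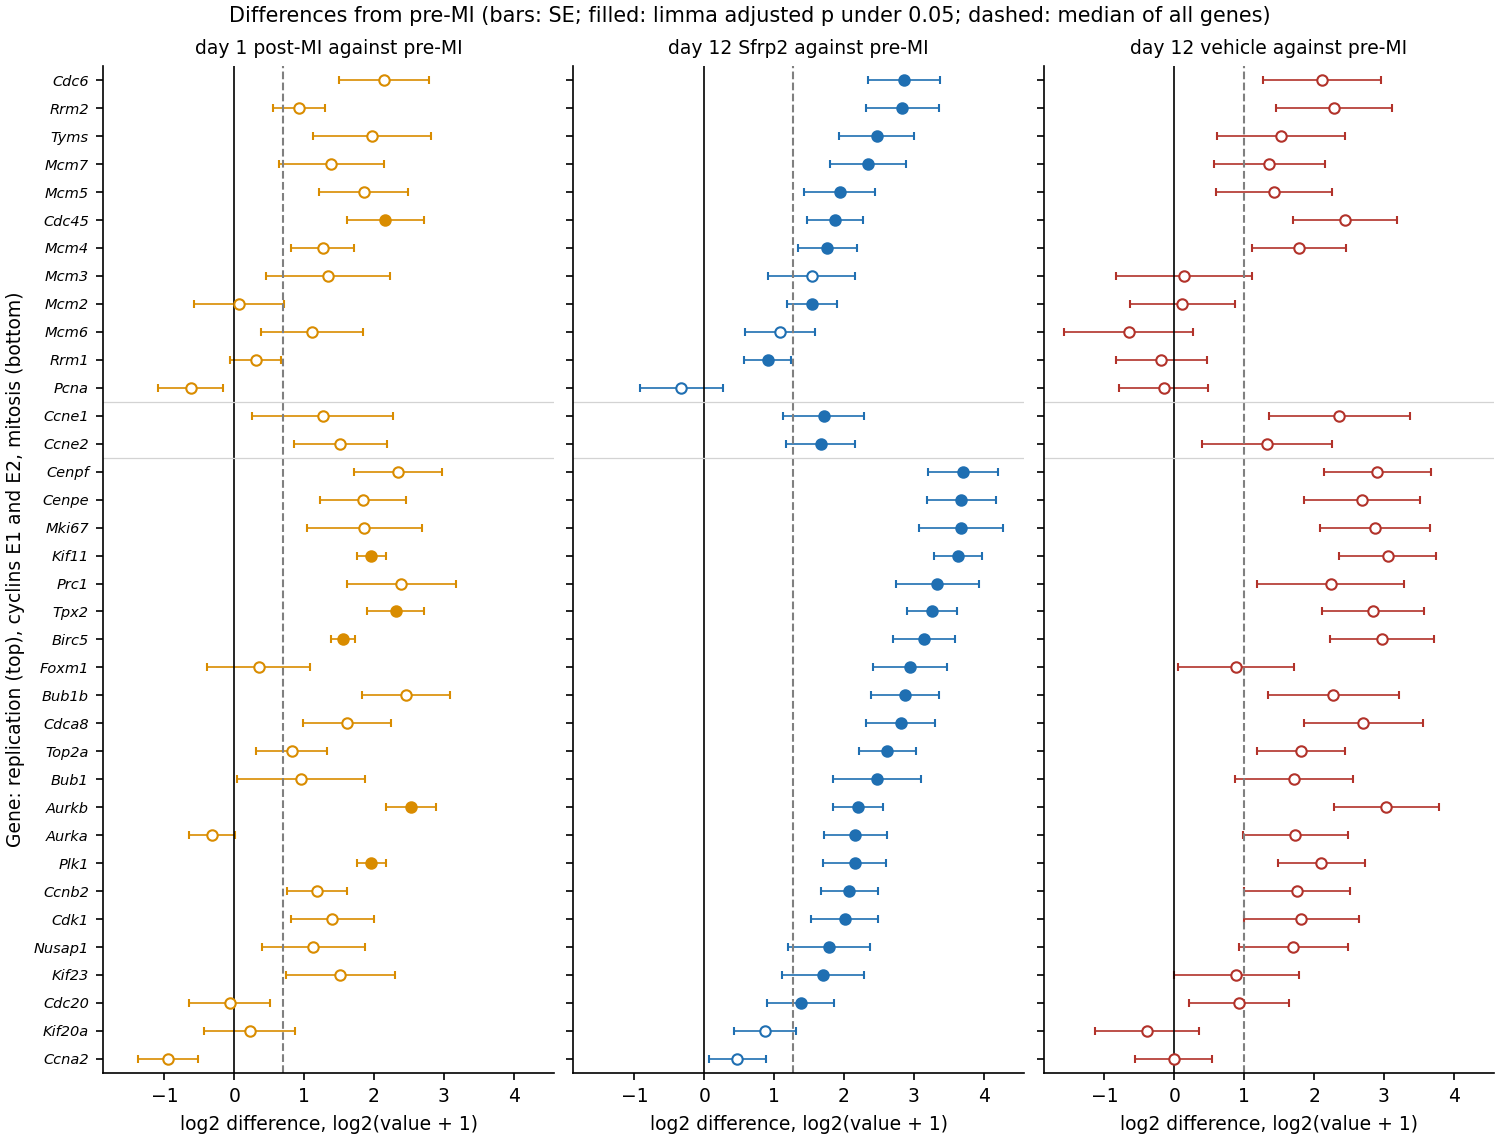
Log2 differences on log2(value + 1) from pre-MI for the 36 genes at day 1, in day 12 Sfrp2 and in day 12 vehicle; bars are standard errors, filled points passed the limma test, and the dashed line is the median of all genes. Fitted differences of the 5 genes unread before MI are no bounds. Most mitosis genes lie right of the dashed line with Sfrp2, while Pcna, Ccna2, Rrm1 and Kif20a lie left of it in every panel.

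Between day 12 Sfrp2 and day 12 vehicle, no gene of the 36 and no gene of the 15223 passed limma (0.0%), and edgeR, DESeq2 and the authors' deposited table called none of the 36. At an unadjusted p under 0.05 limma gave 219 of all genes. Weighting each library, an alternative chosen after the data were seen, called 8 of the 36 higher and 1 (Cdc45) lower, against 7.15% and 7.2% of all genes. The median log2 difference was 0.56 for the 36 and 0.22 for all genes, with 31 of 36 above 0 against 64.3% of all genes. The number above 0 was 24 with a weight per library, 25 without vehicle replicate 2, 26 when centred and 33 with background subtracted. These genes share the same libraries, so the number is a description. Of the 36, 2 had an unadjusted p under 0.05 by limma, Foxm1 (log2 difference 2.06, SE 0.78) and Mcm2 (1.43, SE 0.61). Foxm1 read 11.3, 13.2 and 6.54 with Sfrp2 and 5.45, 1.83 and 0 with vehicle. Mcm2 read 10.6, 9.42 and 8.58 with Sfrp2 and 4.67, 1.22 and 3.74 with vehicle. In both genes the groups did not overlap, as for 8 of the 36 in all, against 4.93% of all genes (2.33% were lower without overlap). The other 6 were Mcm6, Mcm7, Rrm1, Kif20a, Kif11 and Cenpf. Mki67 differed by 0.80 (SE 0.57) and Top2a by 0.80 (SE 0.53).

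Other genes of the cycle were read from lists that do not contain the 36. Of 46 further replication genes 37 are listed, and between day 12 Sfrp2 and pre-MI 23 were higher and 1 lower, against 48.8% and 8.82% of all genes. Clspn, the checkpoint adaptor claspin, read 11.3, 17.6 and 13.49 with Sfrp2 and 0 in all pre-MI libraries, and Pole, the catalytic subunit of DNA polymerase epsilon, averaged 18.4 ± 4.66 with Sfrp2 against 0.315 ± 0.546 before MI. Of 50 further mitosis genes 43 are listed, and 32 were higher and none lower, read against the same shares. Among them the kinetochore gene Kntc1 averaged 16.4 ± 1.71 and the spindle gene Dlgap5 13.4 ± 0.836 with Sfrp2, both unread before MI. The medians of the further replication and mitosis genes were 1.76 and 2.72, against 1.27 for all genes. Here too, genes with under 10 reads before MI, such as Clspn, Kntc1 and Dlgap5, are listed through other libraries. Their direction is therefore partly selected. Divided by background, the further replication genes stood at 45.3 to 67.9 before MI and 2.53 to 5.14 with Sfrp2. The further mitosis genes stood at 14.5 to 24.3 before MI and 2.64 to 4.41 with Sfrp2. At day 1 against pre-MI 7 of 37 further replication genes (18.9%) and 16 of 43 further mitosis genes (37.2%) were higher and none lower, against 21.3% and 2.65% of all genes. With vehicle none passed, as none did among all genes.

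Of 9 G1 cyclin and kinase genes, 2 were higher and 2 lower with Sfrp2 than before MI, against 48.8% and 8.82% of all genes. The lower ones were Ccnd1 and Ccnd2, D cyclins that start the cycle with CDK4 and CDK6. The third D cyclin, Ccnd3, averaged 17.7 ± 6.24 with Sfrp2 against 10.1 ± 1.89 before MI, and Cdc25a, a phosphatase that activates CDKs, was among the higher ones (log2 difference 2.02, SE 0.49). Ccnd1 averaged 25.5 ± 20.3 with Sfrp2 against 86.0 ± 6.93 before MI, which is -2.06 on the log2 scale with an SE of 0.58 (limma adjusted p = 0.0149), and Ccnd2 averaged 26.2 ± 2.74 against 79.9 ± 20.4, a difference of -1.55 (SE 0.28). The CDK inhibitor gene Cdkn1c averaged 3.19 ± 1.68 with Sfrp2 and 2.19 ± 1.47 at day 1 against 26.8 ± 6.30 before MI. Its log2 differences of -2.81 (SE 0.42) and -3.18 (SE 0.42) both passed limma. It is 1 of 7 listed genes of CDK inhibitors and pocket proteins. Summed with Cdkn1c included, the 7 read 94.3 to 134.5 before MI, 67.8 to 107 with Sfrp2, and 67.7 and 87.1 at day 1. The sums before MI and with Sfrp2 overlapped, so the fall of Cdkn1c does not stand for its list. Of the 13 listed E2F, DREAM and MYB genes 5 (38.5%) were higher and 1 lower with Sfrp2, against 48.8% and 8.82% of all genes. E2f1, an activator of replication genes, read 4.93, 11.9 and 4.50 with Sfrp2 and 8.57, 16.4 and 50.5 with vehicle, where replicate 3 was the highest, against 0.946, 0 and 0 before MI.

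Marker genes of other cells moved with the same comparisons. Between day 12 Sfrp2 and pre-MI, 6 of 7 myeloid, 5 of 5 T cell and 3 of 5 fibroblast markers were higher, and 5 of 5 endothelial, 5 of 5 cardiomyocyte and 4 of 5 erythroid markers were lower, against 48.8% of all genes higher and 8.82% lower. The myeloid sum was 133 to 206 with Sfrp2 and 123 to 1115 with vehicle, against 13.6 to 19.9 before MI, when Ccr2 was unread in all 3 libraries. The T cell sum was 20.9 to 214 with Sfrp2 and 22.6 to 129 with vehicle, against 1.79 to 3.79 before MI, when Cd3g was unread. Divided by background, myeloid reads stood at 14.3 to 35.7 before MI, 5.36 to 13.4 with Sfrp2 and 1.49 to 311 with vehicle. T cell reads stood at 5.62 to 16.1 before MI, 1.93 to 32.9 with Sfrp2 and 2.31 to 35.7 with vehicle. The T cell markers had 8 reads in all before MI. Markers with under 10 reads there are listed through other libraries, so their rise is partly selected. Sfrp2 replicate 1 held both the highest T cell sum and the highest sum of the 36 genes (410, against 317 and 318 in the other 2). The endothelial sum was 254 to 700 with Sfrp2 and 86.0 to 1153 with vehicle, against 3118 to 3156 before MI. At day 1 against pre-MI 5 of 7 myeloid markers were higher and all 5 endothelial and all 5 cardiomyocyte markers lower, against 21.3% and 2.65% of all genes, the myeloid sum being 212 and 329. The part of these cells in the cell cycle values was not tested. Without Sfrp2 replicate 1, 25 of the 36 genes were called higher, against 44.9% of all genes higher and 9.05% lower. Leaving out Sfrp2 replicate 2 or 3 instead gave 25 and 24, so the count without replicate 1 does not bear on T cells. Kit itself read 6.34 to 13.8 with Sfrp2, 8.52 to 33.7 with vehicle and 3.44 and 5.65 at day 1, against 5.68 to 18.0 before MI.

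Shared exon sequence limits some of these genes. Kif20a shares 1271 exon bases (29.3%) with Cdc23 on the opposite strand, Ccne2 609 (17.4%) with Ints8 and Prc1 911 (11.1%) with Rccd1. Cdc23 read 110 in vehicle replicate 3 and 3.41 to 21.7 elsewhere, and Kif20a read 1.87 there. Pcna and Tyms have annotated pseudogenes in RefSeq, and since reads were kept only where they mapped to 1 place, their counts are uncertain.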

How the data were processed

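RNA of purified c-Kit(+) cells was amplified as cDNA, per the labels' protocols. Per the labels' protocols and the submitters' processing notes, trimming used Trim Galore and Cutadapt, STAR mapped reads to GRCm38, only uniquely mapped reads entered HTSeq counting, and DESeq2 made the normalized values and tests after dropping genes that never reached 10 reads; no tool version is given in the sources used here. What the authors deposited per gene is therefore a signal: a read count over a size factor. Beside it the authors deposited, for each of their comparisons, log2 ratios, a score (the test statistic) and p-values.

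Reads were recovered as multiples of the smallest step of a library, which made 100% of values whole (tolerance 0.001). The main test was limma 3.58.1 (trend) in R 4.3.3 on log2(value + 1), which understates changes of low genes, fitted to the libraries of the compared groups, with Benjamini-Hochberg adjustment over 15223 genes at 0.05. Alternatives were pseudocounts of 0.5 and 5, a mean of at least 10, edgeR 4.0.16 and DESeq2 1.42.0 on recovered reads, other scalings, background subtraction, a fit to all 11 libraries, leaving out libraries and a replicate block; weights per library were added after seeing the data. On simulated data the limma fit of day 1, with 2 libraries against 3, made more false calls than edgeR or DESeq2. Exon lengths came from GENCODE release 21 for GRCm38 (98.94% of genes matched). Replicate numbers did not pair libraries, so no block is in the main fit.

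The genes and lists were chosen with earlier results of these data known. Values per library were given for the 4 genes of each class with the highest mean, for genes unread in a whole group (by name, up to 3) and for up to 3 genes of each other list with the smallest p. Other genes on the list were named as examples after their values were seen.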

Additional observations from a re-analysis of the deposited data

How the results depend on the processing

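Counts of the 36 cell cycle genes past the threshold moved with the method. For day 12 Sfrp2 against pre-MI, 31 in the main test became 20 with DESeq2, 18 with background subtracted, 10 when centred on the median of all genes (9 higher, 1 lower) and 2 of the 3 genes with a mean of at least 10; leaving out 1 library gave 24 to 30. For day 12 vehicle against pre-MI, 0 became 6 with edgeR, 17 with all 11 libraries in 1 fit and 24 with a weight per library; leaving out 1 library gave 0 to 18. For day 1 against pre-MI, 6 became 3 with edgeR, 0 with DESeq2, 2 with background subtracted, 2 with all 11 libraries in 1 fit and 2, both lower, when centred; leaving out 1 library gave 4 to 9, and no gene of the 36 had a mean of at least 10. For day 12 Sfrp2 against day 12 vehicle, 0 stayed 0 in every alternative except the weights, which gave 9 (8 higher, 1 lower); leaving out 1 library gave 0 to 0. For day 12 Sfrp2 against pre-MI, centring turned the called genes Cdc20 (-0.09) and Rrm1 (-0.56) and the uncalled Mcm6 (-0.39), Kif20a (-0.60) and Ccna2 (-0.996), since it takes the same amount from every gene; background subtraction turned Rrm1 (-0.33). The cause of the other changes was not tested. Of the single-gene values, 906 kept their direction and side of the threshold, 132 lost a call and 30 gained one. Another 25, called in neither setting, changed direction. A further 3, called in either setting, changed direction as well.

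The replicate numbers do not pair the libraries: over 4445 genes, same-numbered libraries correlated at -0.039 to 0.024 in the comparisons with pre-MI and at -0.139, -0.631 and -0.029 between Sfrp2 and vehicle. With a replicate block the counts were 0 for day 1, 6 for day 12 vehicle and 31 for day 12 Sfrp2 against pre-MI, where 0.0657%, 7.63% and 51.4% of all genes were higher and 0.0%, 2.23% and 9.12% lower, and 0 between Sfrp2 and vehicle (0.0% of all genes). At most 62 reads stand behind a value of these genes.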
